A study of Mus musculus with 6 samples.

Results

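The 39 genes of the 4 mouse Hox clusters were followed across the nuclei of subcutaneous and visceral fat. A gene was a member where its symbol was Hoxa, Hoxb, Hoxc or Hoxd followed by a number from 1 to 13 and nothing else, which held for 39 of the 56980 genes listed. No measured value entered this choice. The data came from 6 single-nucleus RNA-sequencing libraries of white fat from female C57BL/6J mice, in which every nucleus carries a barcode and every captured transcript a unique molecular identifier (UMI). Inguinal subcutaneous adipose tissue (SAT) gave 2 libraries from mice aged 2 months and 2 from mice aged 24 months, and gonadal visceral adipose tissue (VAT) gave 2 libraries from mice aged 24 months. No treatment and no engineered allele is named for any group. The design text of the series puts the older age 2 months later than the labels do, and the labels' age is used here. VAT of young mice was not analysed here. The study's methods describe 2 mice per age, so both depots at 24 months may come from the same animals, but no source states which library belongs to which mouse. The p-values therefore measure the spread between these libraries only.

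Hox genes encode homeodomain transcription factors that lie side by side in clusters, and their order along the chromosome follows the order in which they are switched on from the head to the tail of the embryo. Low-numbered genes act towards the head, and high-numbered genes act in the tail, the distal limbs and the urogenital tract. Cells of adult connective tissue keep the Hox code of the place where they arose, so fat depots are commonly told apart by it. The proteins bind DNA together with cofactors of the PBX, MEIS and PKNOX families, Polycomb complexes keep the clusters silent, and retinoic acid opens them from the low-numbered end.

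Of the 39 members, 31 were detected, with 16670 UMIs in all. At least 1 Hox UMI was found in 8652 of the 27074 nuclei kept, which is 31.96%. The libraries held 2490 to 5776 kept nuclei each, at a median of 1380 to 1880 UMIs per nucleus. The 12 members with the most UMIs held 15522 of them, or 93.11%, and these 12 are described library by library. They were Hoxc5 with 2236 UMIs, Hoxb4 with 2203, Hoxc4 with 2103, Hoxa9 with 2097, Hoxb6 with 1478, Hoxb3 with 1173, Hoxa7 with 1129, Hoxa10 with 733, Hoxb5 with 697, Hoxd8 with 651, Hoxb2 with 643 and Hoxb8 with 379. Among the others were Hoxd9 with 244 UMIs, Hoxb7 with 211, Hoxa2 with 124 and Hoxb9 with 102, and 14 detected members had between 2 and 61 UMIs each, so the numbers 11 to 13 of every cluster were close to the limit of what these libraries could show.

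**Figure D1:**
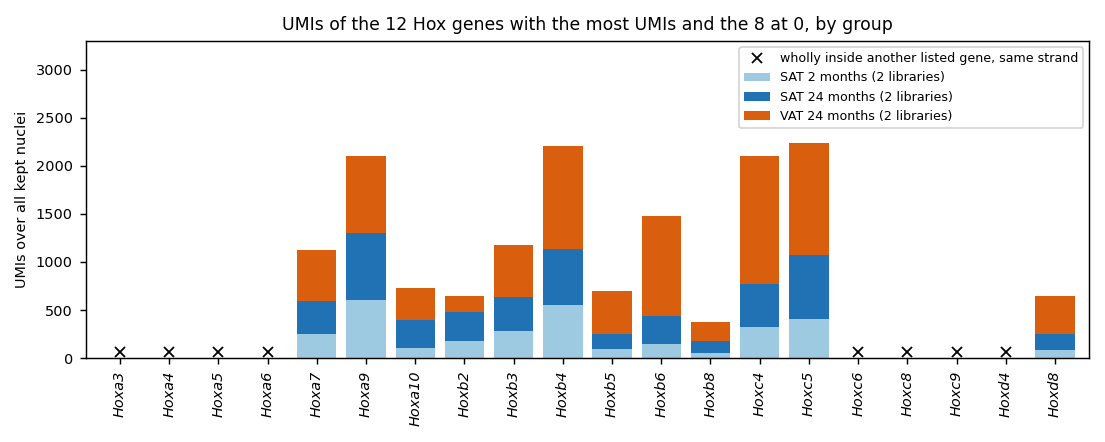
UMIs of the 12 Hox genes with the most UMIs and of the 8 with none (vertical axis) summed over the kept nuclei of all 6 libraries, with genes ordered by cluster and number along the horizontal axis and bars split by group (2 libraries each). Crosses mark the 8 members with no UMI, each of which lies wholly inside another listed gene on the same strand.

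The clusters were located on GRCm39, the build the authors used, with gene models taken from GENCODE. The HoxA cluster spans chr6:52132570-52237822 and had 7 of its 11 members detected with 4307 UMIs. HoxB spans chr11:96085106-96259082 and had all 10 members detected with 6916 UMIs. HoxC spans chr15:102829538-102945278 and had 6 of 9 members detected with 4427 UMIs, of which 4339 fell to Hoxc4 and Hoxc5. HoxD spans chr2:74498654-74595486 and had 8 of 9 members detected with 1020 UMIs.

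The 8 members at 0 in all libraries were Hoxa3, Hoxa4, Hoxa5, Hoxa6, Hoxc6, Hoxc8, Hoxc9 and Hoxd4. Each lies wholly inside a listed gene of the same strand. For the 4 HoxA genes this is the long readthrough gene Gm28308, for the 3 HoxC genes it is Hoxc5, and for Hoxd4 it is Hoxd3. None of the 31 detected members lies wholly inside such a gene. The same held across the table, since 334 of 408 other protein-coding genes inside a same-strand listed gene (81.9%) were at 0, against 943 of 21184 genes that were not (4.45%). The 0 of these 8 members is therefore no measure of their transcription, and the label Hoxc5 covers an interval of 49984 bases, chr15:102875878-102925861, that holds Hoxc6, Hoxc8, Hoxc9 and 85.7% of Hoxc10 besides Hoxc5 itself. Hoxc10 had 2 UMIs. Other detected members also share span with genes of the same strand: Hoxd3 98.56%, Hoxd10 71.71%, Hoxd11 47.87% and Hoxa2 45.85%. They had 17, 61, 33 and 124 UMIs, and the part the overlap played in these counts was not tested.

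Levels of single genes over all nuclei were set side by side per kilobase of gene span, because reads of nuclei cover introns as well as exons. UMI counts, CPM by class and shares of Hox UMIs are not corrected for span. On this scale, in CPM (UMIs of the gene divided by all UMIs of the nuclei considered, on the usual CPM scale) per kilobase over all nuclei, Hoxb4 stood at 11.3, Hoxa9 at 4.55, Hoxb5 at 4.34, Hoxd8 at 3.38, Hoxb2 at 3.196, Hoxb6 at 2.81, Hoxa7 at 2.66, Hoxc4 at 2.04 and Hoxc5 at 0.776. The place of Hoxc5 rests on the annotation: its GENCODE interval of 49984 bases gives 0.776, while RefSeq's span of 3422 bases would give 11.33 from the same UMIs. With RefSeq's spans Hoxa9 would stand at 8.51 and Hoxa7 at 6.63, so the order of these genes depends on the annotation.

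Promoters are shown for 4 members on which the comparisons below turn: Hoxd8 and Hoxd9, whose levels were higher in VAT adipocytes without passing the test, Hoxc4, which was higher in fibro-adipogenic progenitors, and Hoxb4, which was lower in SAT adipocytes at 24 months. The sequences are RefSeq's on GRCm38.p6, an older build than that of the counts, on the plus strand from 250 bases before to 50 bases after the gene's start. CG pairs, the sites of DNA methylation, are in capitals. The windows are chr2:74704365-74704664 for Hoxd8, chr2:74697513-74697812 for Hoxd9, chr15:103034145-103034444 for Hoxc4 and chr11:96318017-96318316 for Hoxb4.
Hoxd8: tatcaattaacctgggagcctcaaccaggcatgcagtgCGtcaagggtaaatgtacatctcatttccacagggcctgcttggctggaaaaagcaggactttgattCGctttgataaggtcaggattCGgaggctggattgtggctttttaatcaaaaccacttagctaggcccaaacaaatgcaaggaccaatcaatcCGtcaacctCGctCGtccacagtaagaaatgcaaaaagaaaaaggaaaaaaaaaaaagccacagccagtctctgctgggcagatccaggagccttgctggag
Hoxd9: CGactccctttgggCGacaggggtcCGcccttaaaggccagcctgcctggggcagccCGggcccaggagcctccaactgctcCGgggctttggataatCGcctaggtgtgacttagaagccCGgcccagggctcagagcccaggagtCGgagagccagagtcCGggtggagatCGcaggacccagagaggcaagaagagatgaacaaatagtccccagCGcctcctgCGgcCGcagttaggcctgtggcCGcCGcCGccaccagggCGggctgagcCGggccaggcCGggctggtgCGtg
Hoxc4: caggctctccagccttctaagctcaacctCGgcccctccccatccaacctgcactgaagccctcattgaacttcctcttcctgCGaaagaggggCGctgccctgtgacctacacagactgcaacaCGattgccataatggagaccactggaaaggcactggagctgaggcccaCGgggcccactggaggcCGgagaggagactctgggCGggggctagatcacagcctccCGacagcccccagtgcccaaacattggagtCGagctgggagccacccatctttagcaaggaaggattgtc
Hoxb4: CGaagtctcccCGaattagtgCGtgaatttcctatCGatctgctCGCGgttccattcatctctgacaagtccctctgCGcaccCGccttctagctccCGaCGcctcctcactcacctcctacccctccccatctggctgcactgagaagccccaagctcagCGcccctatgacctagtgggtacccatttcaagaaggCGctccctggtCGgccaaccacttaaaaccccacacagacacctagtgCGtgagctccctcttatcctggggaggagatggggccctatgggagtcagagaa
Hoxd8 has 6 CG pairs in its window, Hoxd9 20, Hoxc4 9 and Hoxb4 14. The 24 windows of the 22 members that RefSeq's table held had a median of 14.5 CG pairs, against 7 over all 32851 windows. Searched on both strands, the PBX and HOX motif TGATNNAT was in 4 of the 24 windows and in 8.85% of all windows, and the MEIS motif TGACAG was in 2 of the 24 and in 19.2% of all windows. Neither was in any of the 4 windows printed here.

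Nuclei were put into classes by markers, with every gene of the Hox clusters kept out of the clustering. Adipocytes, the lipid-storing cells, made up 155 to 2913 nuclei per library, and fibro-adipogenic progenitors (FAPs), the fibroblasts that can become adipocytes, made up 60 to 685. Adipocyte markers summed to 13700 to 16600 CPM in the adipocytes of the 6 libraries. The second VAT library stood apart: it had only 155 adipocytes, and its 314 FAPs carried FAP markers at 4570 CPM, against 13900 to 23900 in the other libraries, and mesothelial markers at 2740 CPM, against 17.2 to 366. Its median mitochondrial share was 5.07%, against 0.776% to 3.49% elsewhere. Of these 314 nuclei, 37 (11.8%) were FAPs also when clustered without correction for library, against 90% to 99.4% elsewhere, while 96.1% to 100% of adipocytes were. Tests on FAPs are therefore given with that library and, where a difference was fitted, without it. Between 166 and 230 barcodes of a library, out of 6158 to 11341, occurred in another library too.

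Hox transcripts were found more often in mesenchymal and vascular nuclei than in immune nuclei. With every nucleus thinned to 1000 UMIs, at least 1 Hox UMI was seen in 25.7% to 35.0% of adipocytes, in 32.2% to 46.7% of FAPs and in 31.9% to 45.6% of endothelial nuclei, the lining of vessels. In immune nuclei, which should lack most Hox transcripts, the share was 4.07% and 4.41% in 2-month SAT, 4.23% and 8.88% in 24-month SAT, and 16.2% and 10.4% in VAT. Adipocyte, FAP and endothelial shares lay above the immune share of the same library in all 6 libraries. Immune nuclei of the first VAT library also held adipocyte markers at 4210 CPM, against 477 to 2780 in the other libraries, and the part this played in their Hox share was not tested. Without thinning, the shares were 41.3% to 51.3% in adipocytes and 5.88% to 22.2% in immune nuclei, at median depths of 1560 to 2250 and 1270 to 1460 UMIs.

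The 4 clusters did not contribute alike in every class. The members at 0, whose 0 is no measure of their transcription, lie in HoxA, HoxC and HoxD only. Shares therefore cover 7 of 11 HoxA members, 10 of 10 HoxB, 6 of 9 HoxC and 8 of 9 HoxD. In endothelial nuclei HoxB gave 71.6% and 70.9% of Hox UMIs in 2-month SAT, 74.1% and 50.6% in 24-month SAT, and 63.2% and 62.9% in VAT. In adipocytes HoxB gave 22.2% to 30.2% in the libraries other than the second of VAT, where it gave 49.0%, and in FAPs it gave 26.8% to 36.0%. HoxC went the other way: it gave 0% to 13.1% of endothelial Hox UMIs, 25.1% to 38.8% in adipocytes and 30.5% to 38.9% in FAPs. In every library the HoxB share of endothelial nuclei was above, and their HoxC share below, those of the adipocytes and FAPs of the same library. The library with the lowest endothelial HoxB share, the second of 24-month SAT, also had the most adipocyte markers in its endothelial nuclei, at 7990 CPM beside 3930 CPM of endothelial markers.

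**Figure D2:**
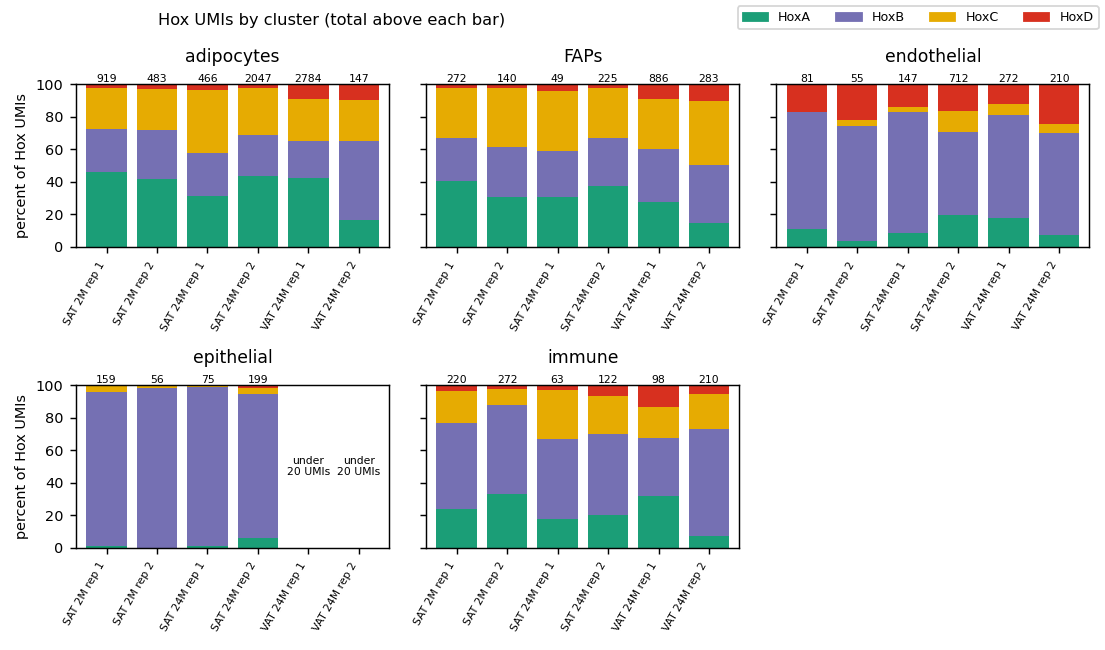
Percent of Hox UMIs that fell to HoxA, HoxB, HoxC and HoxD (vertical axis) in each library (horizontal axis) for each class, with the number of Hox UMIs above each bar. HoxB fills most of the endothelial and epithelial bars, and the HoxD segment of adipocytes is taller in both VAT libraries (9.38% and 9.52%) than in the 4 SAT libraries (2.39% to 3.65%).

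The first question was which Hox genes differ between visceral and subcutaneous adipocytes of the same age. Hoxd8 and Hoxd9, neighbours in the HoxD cluster that act in the trunk and the proximal limb, were higher in both VAT libraries than in all SAT libraries, and Hoxc5 was lower. Hoxd8 in adipocytes was at 11.4 and 11.4 CPM in 2-month SAT, at 11.0 and 7.70 in 24-month SAT, and at 23.8 and 25.6 in VAT. The VAT mean was 24.7 ± 1.34 CPM and the mean of 24-month SAT 9.37 ± 2.35 CPM (SD, n = 2 each). In edgeR's quasi-likelihood test the difference was 1.47 ± 0.42 (log2, SE), with an adjusted p of 0.381 over the 12939 genes tested. Hoxd8 therefore did not pass the threshold of 0.05.

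Hoxd9, which was outside the 12 members chosen by UMIs and was singled out after its values were seen, had 1 and 2 UMIs in adipocytes of 2-month SAT, 0 and 6 in 24-month SAT, and 56 and 3 in VAT. In CPM these are 0.543 and 2.27, 0 and 1.08, and 6.96 and 6.99. The 2 VAT libraries gave nearly the same level although one of them rests on 3 UMIs. The edgeR difference at 24 months was 3.15 ± 0.90 (log2, SE), with an adjusted p of 0.39. Against all 4 SAT libraries, Hoxd8 differed by 1.38 ± 0.36 with an adjusted p of 0.0689, and Hoxd9 by 2.95 ± 0.76 with an adjusted p of 0.0696. Over the alternative settings, Hoxd8 passed in 4 of 13 and Hoxd9 in 2 of 12 of these wider comparisons.

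The share of the whole HoxD cluster, in which Hoxd8 and Hoxd9 hold most UMIs, was set beside these values. HoxD gave 22 of 919 adipocyte Hox UMIs (2.39%, exact 95% binomial interval 1.51% to 3.60%) and 14 of 483 (2.90%, 1.59% to 4.82%) in 2-month SAT. It gave 17 of 466 (3.65%, 2.14% to 5.78%) and 51 of 2047 (2.49%, 1.86% to 3.26%) in 24-month SAT. In VAT it gave 261 of 2784 (9.38%, 8.32% to 10.5%) and 14 of 147 (9.52%, 5.31% to 15.5%). The SAT and VAT libraries did not overlap, with 9.45% ± 0.105 in VAT (SD, n = 2) and 2.86% ± 0.57 in SAT (n = 4). A share within the Hox UMIs stays the same when all clusters change alike, but it rises when the other clusters fall. Adipocyte Hox UMIs summed to 346 and 343 CPM in VAT, 321 and 367 in 24-month SAT, and 499 and 549 in 2-month SAT. The share was looked at after the values of Hoxd8 and Hoxd9 were known and is given as a description, without a test.

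Hoxc5, whose interval includes Hoxc6, Hoxc8 and Hoxc9, was at 88.5 and 76.1 CPM in adipocytes of 2-month SAT, at 72.4 and 67.9 in 24-month SAT, and at 42.3 and 46.6 in VAT. All VAT values lay below all SAT values. The edgeR difference at 24 months was -0.64 ± 0.25 (log2, SE), with an adjusted p of 0.671, and against all SAT libraries it was -0.69 ± 0.23, with an adjusted p of 0.16. Hoxb8, the member with the fewest UMIs of the 12, was at 11.4 and 11.4 CPM in adipocytes of 2-month SAT, at 11.0 and 8.96 in 24-month SAT, and at 9.45 and 11.7 in VAT, with the depots overlapping. Hoxc4, the neighbour of Hoxc5, showed no gap between the depots, at 36.9 and 59.1 CPM, then 52.4 and 37.6, and in VAT 45.4 and 39.6.

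Hoxa9, a HoxA gene of the trunk and hindlimb that also works in blood stem cells, separated the 2 VAT libraries from each other. Its adipocyte level was 144 and 157 CPM in 2-month SAT, 47.6 and 84.0 in 24-month SAT, and 66.2 in the first VAT library against 11.7, from 5 UMIs, in the second. Over all nuclei these VAT libraries held 733 and 66 Hoxa9 UMIs. Hoxb6 went the other way, with 17.7 and 46.6 CPM in VAT, 16.6 and 16.3 in 24-month SAT and 14.7 and 26.1 in 2-month SAT. The second VAT library also carried oviduct secretory markers in its adipocytes at 175 CPM and steroidogenic markers at 177 CPM, against at most 31.8 and 12.5 in the other libraries, and their part in its Hoxb6 and Hoxa9 levels was not tested.

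Across the 15 members tested in adipocytes, 0 passed between the depots at 24 months by edgeR and 0 by DESeq2, against 0.131% of all genes by edgeR (0.0541% higher and 0.0773% lower in VAT). At an unadjusted p under 0.05 there were 3 of 15, namely Hoxd8, Hoxd9 and Hoxc5, beside 6.76% of all genes. Members whose VAT libraries both lay above both SAT libraries of 24 months were Hoxb6, Hoxd8 and Hoxd9, or 3 of 15, where 15.7% of all genes with at least 50 UMIs did so, and 2, among them Hoxc5, lay below, where 18.9% did. With all 4 SAT libraries the counts were 2 higher, Hoxd8 and Hoxd9, beside 5.59%, and 2 lower, Hoxc5 among them, beside 10.6%. Against all 4 SAT libraries 0 of 15 passed by edgeR or DESeq2, with 4 at an unadjusted p under 0.05, beside 2.5% and 15.5% of all genes. At 24 months the median difference of the 15 members was 0.07 on the log2 scale, and that of all genes tested was -0.02.

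**Figure D3:**
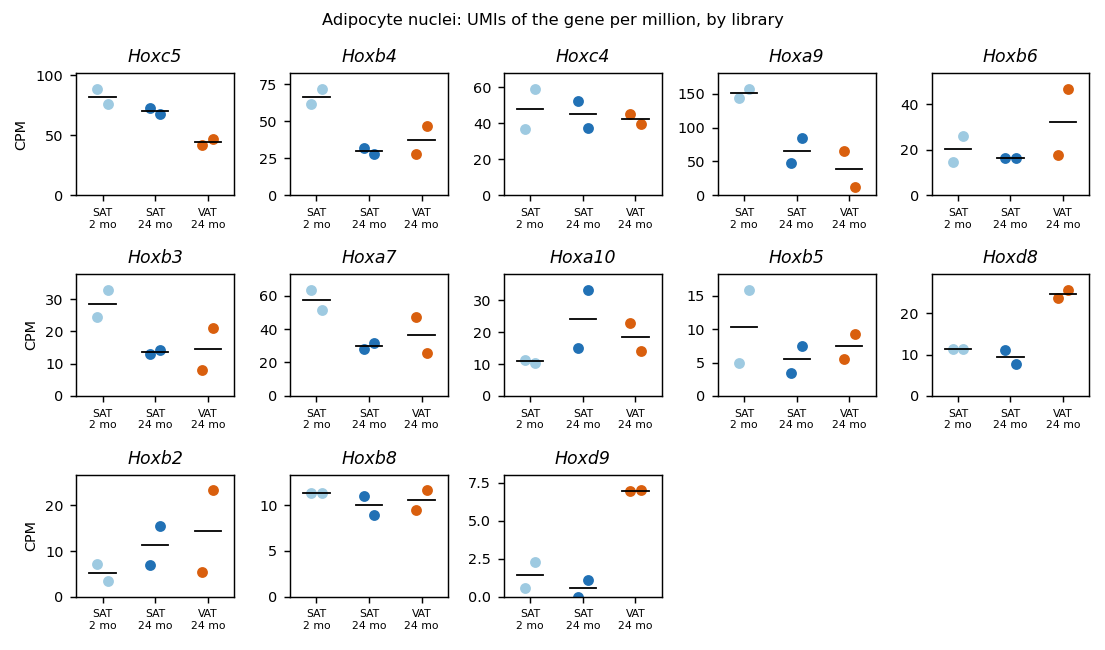
Level in adipocyte nuclei of each library, in CPM (vertical axis), for the 12 members with the most UMIs and Hoxd9. Points are libraries, horizontal lines are means of 2 libraries, and groups lie along the horizontal axis. Both VAT points lie above all SAT points for Hoxd8 and Hoxd9 and below them for Hoxc5.

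With age, 1 of 15 members passed in SAT adipocytes, which is near the share of any gene, 7.27% in that direction and 13.8% in either. Hoxb4, a low-numbered gene also used to expand blood stem cells, was at 61.4 and 71.6 CPM at 2 months and at 31.7 and 27.6 CPM at 24 months. It fell by 1.01 on the log2 scale (SE 0.30, edgeR adjusted p = 0.0446). The call was close to the threshold: by DESeq2 the adjusted p was 0.13, and without any 1 of the 4 SAT libraries it was between 0.0601 and 0.256. It passed in 6 of 14 alternatives, and the direction was the same in all 14, with differences between -1.19 and -0.757.

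Other members did not pass between the ages in the fit of all libraries. Hoxa9 and Hoxa10 each passed in 4 of 14 alternatives, and the count of members was 3 without either VAT library. Hoxa9 went from 144 and 157 CPM to 47.6 and 84.0, with no overlap, and its difference was -1.01 ± 0.43 (log2, SE) with an edgeR adjusted p of 0.142. Hoxa7 went from 63.5 and 51.1 CPM to 28.3 and 31.7 (adjusted p = 0.121). Hoxb3 went from 24.4 and 33.0 CPM to 13.1 and 14.2 (adjusted p = 0.199). Hoxa10, the gene that follows Hoxa9 in the cluster and is needed for the uterus, went the other way, from 11.4 and 10.2 CPM to 15.2 and 33.3 (adjusted p = 0.0714). At an unadjusted p under 0.05 there were 4 members, Hoxb4, Hoxa9, Hoxa7 and Hoxa10, of 15, beside 30.1% of all genes. Of the 15, 8 had both libraries of 24 months below both of 2 months, beside 37.4% of all genes, and 1, Hoxa10, above, beside 21.9%. Immune markers in adipocytes were 604 and 1040 CPM at 2 months and 210 and 200 CPM at 24 months, and their part in these levels was not tested.

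The second question was how the Hox genes of the progenitors differ from those of the adipocytes within a library. Hoxc4, a gene of the neck and upper thorax, Hoxb6, a gene of the thorax, and Hoxa10 were higher in FAPs, and Hoxa7 was higher in adipocytes. Hoxc4 was at 125 and 63.0 CPM in the FAPs of 2-month SAT, at 134 and 78.7 at 24 months and at 157 and 122 in VAT, above the adipocytes of the same library in 6 of 6 libraries. With the library as a block, it rose by 1.31 ± 0.23 on the log2 scale from adipocytes to FAPs (SE, edgeR adjusted p = 0.000699), and it passed in all 12 alternatives, with differences of 1.1 to 1.51 (1.25 without the second VAT library).

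Hoxb6 was at 45.2 and 27.4 CPM in FAPs of 2-month SAT, at 55.7 and 46.7 at 24 months and at 88.4 and 44.5 in VAT, and it was higher in FAPs in 5 of 6 libraries. In the second VAT library adipocytes stood at 46.6 CPM. The difference was 1.29 ± 0.34 (log2, SE) with an edgeR adjusted p of 0.0109, and it passed in 10 of 12 alternatives. Without the second SAT library of 24 months the adjusted p was 0.0563, and without the first VAT library it was 0.0873. Hoxb6 rose by 1.55 without the second VAT library, with an adjusted p of 0.0018.

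Hoxa10 was at 85.1 and 21.9 CPM in FAPs of 2-month SAT, at 44.6 and 46.7 at 24 months, and at 61.5 and 1.94 in VAT, the last from 1 UMI. It was higher in FAPs in 5 of 6 libraries, and its difference of 1.24 ± 0.44 (log2, SE) had an edgeR adjusted p of 0.0430. It passed in 6 of 12 alternatives, and without the second VAT library it rose to 1.47 with an adjusted p of 0.0044. Hoxa7 was at 13.3 and 21.9 CPM, then 11.1 and 32.0, and in VAT 27.8 and 21.3, which is below the adipocytes in 5 of 6 libraries. It differed by -0.87 ± 0.30 (log2, SE, edgeR adjusted p = 0.0368) and passed in 7 of 12 alternatives, with -0.97 (0.0298) without the second VAT library.

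These 4 were among 8 members tested between the classes, where 39.2% of all genes passed, so 4 of 8 is near the share of any gene. The other 4 did not pass: Hoxb3 differed by 0.95 (adjusted p = 0.0676), Hoxa9 by 0.36 (0.396), Hoxc5 by 0.21 (0.484) and Hoxb4 by 0.18 (0.664), all log2 and all by edgeR. Without the second VAT library these 4 did not pass either, at 0.93 (0.105), 0.17 (0.681), 0.07 (0.833) and 0.18 (0.71) in the same order, and 5 of 11 members tested passed, beside 36.8% of all genes, with Hoxb5 the one added (1.56, adjusted p = 0.0221). Hoxb4 changed sign when low counts were not filtered and when either the second SAT library of 24 months or the first VAT library was left out. Hoxa7 and Hoxa10, members of the same cluster, both passed and differed in opposite directions. Adipocyte markers in FAPs were 599 to 3940 CPM and FAP markers in adipocytes 519 to 1400 CPM, and their part in the differences was not tested.

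**Figure D4:**
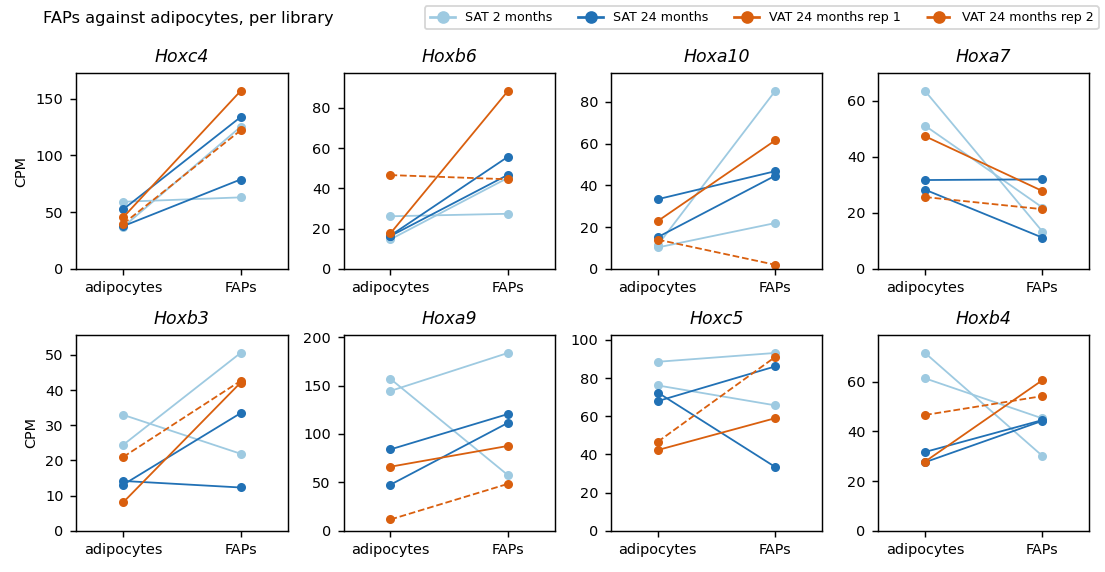
Level in adipocytes and in FAPs (horizontal axis), in CPM (vertical axis), with a line joining the 2 classes of each of the 6 libraries, dashed for the second VAT library. For Hoxc4 all 6 lines rise from adipocytes to FAPs.

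Between the depots, no member passed in FAPs. By edgeR 0 of 10 members tested passed, with 0 of 10 at an unadjusted p under 0.05 and 0 by DESeq2, beside 0% of all genes by edgeR and 6.02% at an unadjusted p. Without the second VAT library the count was 0 of 12, with 0 at an unadjusted p under 0.05, beside 0.226% and 4.69% of all genes, and without the first VAT library it was 1. In such fits VAT is 1 library and is assumed to vary as the other groups do. Against all SAT libraries 0 of 10 passed by edgeR or DESeq2, with 1 at an unadjusted p under 0.05, Hoxd8, beside 0.0466% of all genes in either direction (0.0233% higher and 0.0233% lower) and 7.46% at an unadjusted p. Without the second VAT library 0 of 12 passed there, beside 1.33%, and the 1 member at an unadjusted p under 0.05 was Hoxb6 in place of Hoxd8. Hoxd8 was at 13.3 and 8.21 CPM in FAPs of 2-month SAT, at 22.3 and 0 at 24 months, and at 32.0 and 32.9 in VAT. Its VAT values lay above all SAT values under this clustering, with 38 and 17 UMIs against 0 to 5 in the SAT libraries. Among nuclei that were FAPs both with and without correction for library, the ranges overlapped. There the second VAT library had 1 UMI in 37 nuclei (15.2 CPM) and the first stood at 31.9 CPM, against 0 to 24.7 in SAT. The edgeR difference at 24 months was 2.67 ± 1.31 (log2, SE), with an adjusted p of 0.853, and without the second VAT library 2.72 ± 1.48 with an adjusted p of 1. Hoxd9 was at 0, 0, 0 and 12.3 CPM in the SAT libraries and at 11.8 and 25.2 in VAT, so that its ranges overlapped.

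The HoxD cluster gave 2.21% and 2.14% of FAP Hox UMIs in 2-month SAT, 4.08% and 2.22% in 24-month SAT and 9.14% and 10.6% in VAT, without overlap under this clustering. The other clusters did not stay alike: HoxA gave 27.8% and 14.5% in VAT, below the SAT range of 30.6% to 40.4%, and HoxB gave 32.3% and 36.0% in VAT, above the SAT range of 26.8% to 30.7%, while the HoxC shares overlapped. These shares of 1 total are given as a description, without a test. The SAT shares of HoxD rest on 2 to 6 UMIs each, and their exact intervals reach up to 14.0%. When nuclei were clustered without correction for library, the difference between the depots fell to 3.497 percentage points from 7.21, and the depots overlapped, with 3.77% in the second VAT library, whose FAP class is in doubt, and 4.76% in the first SAT library of 24 months. Without that library, and with the correction, the difference was 6.479 points. In endothelial nuclei the HoxD share was 17.3% and 21.8%, then 14.3% and 16.7%, and in VAT 12.1% and 24.3%, so that the depots overlapped there.

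Among the 10 members tested in FAPs, Hoxb3, Hoxb4, Hoxb5 and Hoxd8 had both VAT libraries above both SAT libraries of 24 months, beside 19.9% of all genes, and Hoxa9 had them below, beside 15% of all genes. Against all 4 SAT libraries this held for Hoxb4 and Hoxd8, beside 7.05%, and for no member in the other direction, beside 5.6%. Hoxb4 stood at 60.6 and 54.2 CPM in VAT FAPs and at 30.1 to 45.2 in SAT. Hoxa9 was at 184 and 57.5 CPM in 2-month SAT, at 111 and 121 at 24 months, and at 87.6 and 48.4 in VAT. Among nuclei that were FAPs both with and without correction for library, Hoxa9 overlapped, at 111 and 124 CPM in 24-month SAT and 88.0 and 152 in VAT. Hoxd8 overlapped there too. Hoxb3, Hoxb4 and Hoxb5 stayed above both SAT libraries of 24 months, Hoxb3 and Hoxb5 from 1 UMI each in the second VAT library. The depot effect did not differ detectably between FAPs and adipocytes in any of the 8 members tested, with 0 passing by edgeR or DESeq2 and 0 at an unadjusted p under 0.05, beside 4.46% of all genes at an unadjusted p. The largest estimate was 1.53 ± 0.88 (log2, SE) for Hoxb3. In FAPs no member passed with age either, by edgeR or DESeq2, with 0 of 10 at an unadjusted p under 0.05, beside 0% by edgeR and 11% of all genes at an unadjusted p. Without the second VAT library 0 of 11 passed in the first of these tests and 0 of 12 in the second, beside 0.0466% and 3.39% of all genes, and Hoxb3 had an unadjusted p under 0.05 in the first (2.03 ± 0.90, adjusted p = 1).

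Of the high-numbered members, which mark the tail end of the body axis, 5 were concentrated in 1 library and were singled out after their values were seen. Over all nuclei the first VAT library held 41 Hoxa11 UMIs, 38 of Hoxd10, 33 of Hoxc11, 29 of Hoxd11 and 14 of Hoxa13, while the other 5 libraries held 0 to 11 of each. Other high-numbered members were not concentrated there: Hoxc13 had 1 of its 26 UMIs in the first VAT library and 13 in the second, and Hoxc12 had 2 of 12. Of Hoxb13, Hoxc10, Hoxd12 and Hoxd13, which had 2 to 6 UMIs each, the first VAT library held 0 or 1. In its FAPs there were 20 UMIs of Hoxa11, 19 of Hoxd11, 17 of Hoxc11 and 10 of Hoxd10. The second VAT library had 0 of each in its 314 FAPs, which allows up to 3 UMIs among the 516424 UMIs captured there. Only 37 of these nuclei, with 65772 UMIs, were FAPs also without correction for library, so the 0 bears little on FAPs. In adipocytes the first VAT library had 15 UMIs of Hoxa11, 12 of Hoxc11 and 11 of Hoxd10, and every other library had at most 1. Genes numbered 9 to 13 made up 29.7% of adipocyte Hox UMIs in the first VAT library and 9.52% in the second, and 19.7% to 32.4% in SAT, so the first VAT library lay within the SAT range. Both VAT libraries bear the same labels, and the tissue taken along with each cannot be told apart from the animal.

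Of the HoxB genes, Hoxb3, Hoxb4, Hoxb5 and Hoxb6 held the most UMIs in endothelial nuclei, without correction for gene span. Hoxb6 was at 107 and 143 CPM in 2-month SAT, at 177 and 42.2 at 24 months and at 149.8 and 144 in VAT. Hoxb4 was at 107 and 143, then 72.7 and 45.9, and in VAT 112 and 91.1. Hoxb5, an early endothelial and enteric neuron factor, was at 127 and 78.1, then 72.7 and 37.9, and in VAT 54.7 and 44.1. Hoxb3 was at 107 and 91.1, then 45.4 and 34.1, and in VAT 66.2 and 52.9. Hoxd8, which takes part in lymphatic vessel growth, was at 58.5 and 143, then 72.7 and 44.7, and in VAT 43.2 and 70.5. Of 11 members with at least 50 endothelial UMIs, Hoxb3, Hoxb4 and Hoxb5 were lower in both SAT libraries of 24 months than in both of 2 months, beside 22.4% of all genes, and Hoxa7 was higher, beside 19.4%. Hoxb3, Hoxb4 and Hoxd9 were higher in both VAT libraries than in both SAT libraries of 24 months, beside 17.1%, and 0 were lower, beside 13.8%. Between depots 0 of 9 members passed by edgeR or DESeq2, with 0 at an unadjusted p under 0.05, beside 0% and 4.53% of all genes. Between the ages 0 of 9 passed by edgeR or DESeq2, with 1 at an unadjusted p under 0.05, Hoxa7, beside 0.0256% and 12% of all genes. SAT at 2 months had only 55 and 47 endothelial nuclei.

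Nuclei that scored highest on the smooth muscle and pericyte markers fell into clusters that differed in their Hox genes and are described apart, without a class name. One cluster of 329 nuclei, with the chemokine genes Ccl21a, Cxcl13 and Ccl19 among its leading genes, had Hoxc4 at 197 and 126 CPM in 2-month SAT, at 193 and 379 at 24 months, and at 175 and 101 in VAT. Another cluster of 655 nuclei, with Cxcl14 and the contractile genes Myh11 and Acta2 among its leading genes, had Hoxc4 at 0 and 4.01 CPM, then 74.6 and 0, and in VAT 197 and 66.5. Hoxb3 was there at 54.1 and 60.2 CPM, then 117 and 46.2, and in VAT 131 and 31.9. Neither cluster was tested, and the second rests on 27 to 239 nuclei per library and the first on 20 to 126. In immune nuclei 0 of 7 members passed between the depots by edgeR or DESeq2, with 1 at an unadjusted p under 0.05, Hoxb6, beside 0% and 4.7% of all genes. With age 0 of 7 passed by either tool, with 0 at an unadjusted p under 0.05, beside 0% by edgeR and 8.43% of all genes at an unadjusted p.

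Mesothelial nuclei, the lining of the body cavity, could be described in VAT only. In SAT the nuclei that clustered with them, 11 to 73 per library, carried epithelial markers at 1480 to 2490 CPM above mesothelial markers at 341 to 1520 CPM. In VAT mesothelial markers stood at 6000 and 4680 CPM and epithelial markers at 75.6 and 397 CPM, in 229 and 1639 nuclei. Hoxc4 was at 96.8 and 125 CPM in VAT mesothelial nuclei, and Hoxc5 at 87.4 and 122. Members of HoxA and HoxB differed between the libraries: Hoxa9 was at 104 and 5.24 CPM, Hoxa7 at 56.7 and 6.74, Hoxa10 at 49.6 and 2.25, Hoxb6 at 77.9 and 29.7, and Hoxb4 at 59.0 and 26.7. The mesothelial nuclei of these libraries sat mostly in different clusters: 163 of 229 of the first were in a cluster of 373 nuclei led by Il1rapl1, and 1445 of 1639 of the second in a cluster of 1621 led by Upk1b. Within the cluster led by Il1rapl1 the libraries were close, with HoxA at 214 and 158 CPM, HoxB at 233 and 187, and HoxC at 199 and 266. Within the cluster led by Upk1b HoxA was at 268 CPM in 66 nuclei of the first library and at 5.29 CPM in the second. By edgeR 0 of 9 members passed between depots in this class, with 1, Hoxb2, at an unadjusted p under 0.05, beside 0% and 11% of all genes, and DESeq2 called 1, beside 1.39%. The fit left out the first SAT library of 24 months, which had 11 such nuclei, and assumed that the other one varies as the other groups do. Hoxb2 had 11 UMIs in the SAT library that entered and 1 and 1 in VAT, and no fold is given because of what these SAT nuclei are. With age 0 of 9 passed by either tool, with 1 at an unadjusted p under 0.05, Hoxc5, beside 0% and 7.55% of all genes.

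The Hox UMIs of epithelial nuclei were mostly HoxB, the only cluster with every member detected. In SAT, where a female inguinal depot holds mammary gland, epithelial nuclei were 108 to 206 per library and HoxB gave 94.3% and 98.2% of their Hox UMIs at 2 months and 97.3% and 88.4% at 24 months. Nearly all fell to the low-numbered end, since the numbers 1 to 4 gave 84.4% to 94.7%. Hoxb4 was at 41.5 and 24.2 CPM at 2 months and at 43.7 and 65.7 at 24 months. Hoxb2 was at 39.95 and 29.95, then at 45.6 and 54.6, and Hoxb3 at 25.6 and 19.97, then at 38.3 and 47.5. All 3 genes were within a range of less than 3 times over the 4 libraries.

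A cluster without a class name showed HoxB in both depots but with a different set of genes. Its markers Csn3, a milk casein, and Ovgp1, an oviduct glycoprotein, were looked up after the cluster was seen. In SAT its 159 to 355 nuclei per library held 365 to 1893 Csn3 UMIs and at most 8 Ovgp1 UMIs, whereas the 405 nuclei of the second VAT library held 0 Csn3 and 3013 Ovgp1 UMIs. Of 902 Hox UMIs in those VAT nuclei 862 were HoxB. Hoxb6 was at 329 CPM there, from 273 UMIs, and had 0 and 3 UMIs in 2-month SAT and 0 and 1 at 24 months. Hoxb5, with 118 UMIs at 142 CPM, had 0 to 2 UMIs in the SAT libraries. Hoxb4 was at 328 CPM in VAT and at 32.3 to 68.2 in SAT, and Hoxb3 at 146 against 20.8 to 36.2, while Hoxb2 at 31.3 lay within the SAT range of 11.9 to 34.6. The levels of Hoxb2 overlapped, and those of Hoxb3, Hoxb4, Hoxb5 and Hoxb6 did not. The 2 depots meet here in different tissues and in 1 VAT library, so no test was made. The first VAT library had 21 such nuclei with 39 Hox UMIs.

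**Figure D5:**
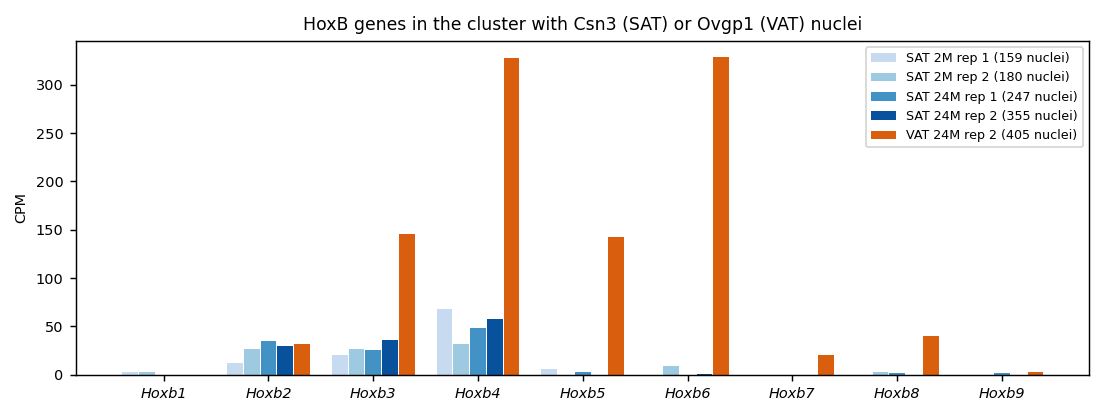
Level of the HoxB genes (horizontal axis), in CPM (vertical axis), in the cluster that holds nuclei with Csn3 in SAT and with Ovgp1 in the second VAT library. Hoxb6 reaches 329 CPM in VAT and at most 8.80 in SAT, whereas Hoxb2 is at 31.3 CPM in VAT and at 11.9 to 34.6 in SAT.

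Summed over all nuclei, Hox UMIs made up 201 and 127 CPM in 2-month SAT, 203 and 315 at 24 months, and 419 and 414 in VAT. Such a sum mixes a change in the kinds of nuclei with a change in Hox RNA per nucleus, and these cannot be told apart in it. Immune nuclei were 2509 and 3807 in 2-month SAT, 828 and 608 in 24-month SAT and 302 and 1130 in VAT. Hoxb6 differed by 1.54 ± 0.34 (log2, SE) between the depots at 24 months, with an edgeR adjusted p of 0.345, and against all SAT libraries by 2.24 ± 0.27, with an adjusted p of 0.0746. By edgeR 0 of 17 members tested passed in either comparison, with 2 and 7 at an unadjusted p under 0.05, beside 0.0138% of all genes in each and 7.63% and 12.9% at an unadjusted p. DESeq2 called 1 and 5 of the 17, beside 2.39% and 5.24% of all genes. Between the ages 0 of 17 passed by edgeR or DESeq2, with 3 at an unadjusted p under 0.05, beside 0% and 8.26% of all genes.

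A list of 41 cofactors and regulators of Hox genes was examined beside the members. In FAPs against adipocytes 8 of 31 tested rose and 3 fell by edgeR, beside 21.8% and 17.4% of all genes. Among the cofactors, Pknox2 rose by 3.14 ± 0.31 (log2, SE, adjusted p = 1.47e-05), Meis2 by 1.13 ± 0.29 (0.00938), Meis1 by 1.11 ± 0.23 (0.00219) and Pbx3 by 1.04 ± 0.31 (0.0198). Of the retinoic acid pathway, the synthesising enzyme Aldh1a3 rose by 3.90 and the receptors Rara and Rarb by 1.36 and 0.85. Of Polycomb, Ring1 fell by 0.97 and Jarid2 by 0.86. With the second VAT library left out, 7 of 31 rose and 3 fell, and Pbx3 no longer passed (0.72 ± 0.28, adjusted p = 0.06). The median of the 31 was 0.27 (log2), against 0.03 for all genes tested.

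With age in SAT adipocytes 3 of 31 rose, beside 6.56% of all genes, and 1 fell, beside 7.27%. Meis3 rose by 2.12 ± 0.41 (log2, SE, edgeR adjusted p = 0.00592) and Aldh1a1, which makes retinoic acid, by 1.69 (0.0121), while Cbx7, a Polycomb subunit, fell by 1.35 (0.0058). Between the depots at 24 months 0 of 31 passed in adipocytes and 0 of 30 in FAPs by edgeR. Without the second VAT library 1 of 30 passed in FAPs, Cyp26b1, which breaks down retinoic acid and was lower in the 1 VAT library left (-5.37 ± 0.87, log2, SE, edgeR adjusted p = 0.00129). With both VAT libraries its difference was -5.57 ± 0.74 (0.0867). Meis1 differed by 1.39 ± 0.38 in FAPs, with an edgeR adjusted p of 0.72, and by 1.30 ± 0.47 (0.581) without the second VAT library. Against all SAT libraries 0 of 30 passed in FAPs by edgeR, with Meis1 at 1.62 ± 0.31 (0.130), Meis2 at 1.41 ± 0.38 (0.321) and Cyp26b1 at -4.47 ± 0.70 (0.074). With the second VAT library left out, 2 were higher in VAT, Meis1 by 1.53 (0.0367) and Meis2 by 1.80 (0.0149), and Cyp26b1 was lower (-4.29, 0.00259), beside 1.33% of all genes.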

How the data were processed

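The authors captured nuclei on a Singleron chip, sequenced on an Illumina instrument and counted reads with Celescope against GRCm39 (the version, annotation release and use of strand are not given in the sources used here). The description label names another platform. The deposited matrices hold raw counts of UMIs per gene and barcode, with at least 500 UMIs per barcode and 8061862 to 16226690 per library. The study's filters were used: a nucleus needed more than 500 genes and 1000 UMIs, and less than 15% of its UMIs from mitochondria. Nuclei were clustered by Leiden at a resolution of 2 on 30 principal components of 1000 variable genes, corrected by library, and named from marker lists. The rule that scores markers was changed after clusters had been looked at. Scrublet's automatic threshold marked 36 nuclei (0.133%) and had not worked, so nuclei were kept, and an alternative removed the 5% with the highest scores per library. Counts were summed per library and class (at least 20 nuclei) and tested with edgeR's quasi-likelihood test (TMM, filterByExpr, all groups in 1 fit). FAPs were compared with adipocytes with the library as a block. P-values were adjusted by Benjamini-Hochberg over all genes tested in a class and comparison, with a threshold of 0.05. Scripts were tested on simulated data.

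CPM relate the UMIs of a gene to all UMIs of the class in a library. Binomial intervals are exact (95%). They and the floor of 3 counts reflect counting error alone. Values per library were given for the 12 members with the most UMIs and for members called in a main comparison, and other members by counts and ranges. For the cofactor list, values were given for genes called and for Meis1 and Meis2. Some genes are not reported here. The members, lists and tests were chosen with earlier results of these data known. The comparison of cluster shares was chosen after the data were seen. Gene spans came from GENCODE M39, which held 56236 (98.69%) of the listed genes. Tests ran in edgeR 4.0.16 and DESeq2 1.42.0 under R 4.3.3, and clustering with leidenalg 0.10.2 and scikit-learn 1.9.0 under Python 3.11.15 (pandas 2.3.3, scipy 1.17.1, numpy 2.4.6).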

Additional observations from a re-analysis of the deposited data

Results flagged for a closer look

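In 3 pairs of classes every library of SAT moved one way with age in one class and the opposite way in the other, and the difference between the classes was not tested in any of them. Hoxa7 differed between 24 and 2 months by -27.3 CPM in adipocytes and by 27.6 CPM in endothelial nuclei, the latter from 0 and 1 UMIs at 2 months. Against the same 27.6 CPM in endothelial nuclei, Hoxa7 differed by -1.36 CPM in immune nuclei. Hoxc5 differed by -12.2 CPM in adipocytes and by 7.49 CPM in immune nuclei. Adipocyte markers in endothelial nuclei were 2270 and 2690 CPM at 2 months and 2820 and 7990 CPM at 24 months, and in immune nuclei 834 and 624 CPM, then 625 and 2780 CPM, and their part in these differences was not tested.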

How the results depend on the processing

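Counts of Hox genes past the threshold and the HoxD shares were recomputed under each alternative, which moved 34 values and left 211 within 1.5 times the reported count or the spread between libraries. With DESeq2 the counts were 1 between depots over all nuclei, 5 for VAT against all SAT over all nuclei, 0 with age in adipocytes and 1 between depots in the mesothelial class. Without a filter on low counts they were 1, 9 and 1 for VAT against SAT at 24 months over all nuclei, VAT against all SAT over all nuclei and the mesothelial depots, 2 for VAT adipocytes against all SAT, 1 with age in immune nuclei and 9 for FAPs against adipocytes. With only the groups compared in the fit, 2 members passed with age in adipocytes. With all barcodes over 500 UMIs the counts were 1 for VAT against all SAT over all nuclei, 0 with age in adipocytes and 2 for VAT adipocytes against all SAT, and without correction for library the last 2 were 0 and 1. Without correction the HoxD share of FAPs differed by 3.497 points. Leaving out 1 library each, the counts ranged from 0 to 3 with age in adipocytes (3 without either VAT library), from 1 to 5 for FAPs against adipocytes (1 without the first VAT library), from 0 to 2 for VAT adipocytes and from 0 to 6 for all nuclei against all SAT (6 without the second VAT library). They ranged from 0 to 1 for the depots over all nuclei, in FAPs and in the mesothelial class and for VAT FAPs against all SAT, and the HoxD share of FAPs differed by 6.479 to 7.938 points. Hoxb4 in FAPs against adipocytes reversed to -0.0006719 without a filter, -0.05497 without the second SAT library of 24 months and -0.1803 without the first VAT library, where leaving out 1 library each gave -0.1803 to 0.4354. The cause of these shifts was not tested. Whether the replicate numbers pair the libraries cannot be told from 2 libraries per group. Between SAT and VAT at 24 months the correlation of replicate deviations across genes was 0.38 in adipocytes and -0.508 over all nuclei. For the pairs with 2-month SAT it was -0.0734 and -0.0257 in adipocytes, and -0.347 and 0.239 over all nuclei. With the replicate number as a block 1 member passed with age in adipocytes and 0 in every other depot and age comparison, as without it. The mesothelial comparisons could not be run without the second SAT library of 24 months or without correction for library. Depth limits all members under 100 UMIs, some of which also share span with genes of the same strand. The tests between depots and ages are limited by 2 libraries per group.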

Other observations

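Transcripts of the Hox clusters that code for no protein were not among the 39 genes and are given as counts over all nuclei. Hoxb3os, antisense to Hoxb3, had 1276 UMIs, with 274 and 195 in SAT at 2 months, 157 and 355 in SAT at 24 months, and 190 and 105 in VAT. The first VAT library held 105 of 125 UMIs of Hoxa11os, 98 of 159 of Haglr and 197 of 437 of Hoxd3os1, against 3, 12 and 63 in the second. Hotair and Hottip had 13 UMIs each. Of the long readthrough gene Gm28308, inside which Hoxa3 to Hoxa6 lie, 74 UMIs were counted, 31 of them in the first VAT library. The sources used here do not give the use of strand in the counting, but 42 of 923 protein-coding genes wholly inside a listed gene of the opposite strand only were at 0 (4.55%), against 81.9% of those inside a gene of the same strand. What happened to the reads of genes inside another was not tested.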
